A study of Mus musculus with 8 samples.

Results

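CXC chemokines are small secreted proteins that attract leukocytes by binding receptors on their surface. Those with an ELR motif, a run of the amino acids Glu-Leu-Arg before the first cysteines, bind CXCR1 and CXCR2 and draw neutrophils. Cxcl9 and Cxcl10 are induced by interferons and bind CXCR3 on activated T cells, while Cxcl12, Cxcl13 and others place lymphocytes, progenitors and macrophages in tissue. The levels of 10 of them (Cxcl1, Cxcl2, Cxcl5, Cxcl9, Cxcl10, Cxcl12, Cxcl13, Cxcl14, Cxcl15 and Cxcl16) were measured in lungs of mice with allergic airway inflammation. They were chosen by name, with earlier results of these data known. Their probes were found by RefSeq accession among 22911 named genes of the array. All 10 had at least 1 probe that entered the test, of 28992 genes or unnamed transcripts tested.

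Whole lung RNA came from 8 female BALB/c mice, bought at 4 weeks of age, housed for 2 weeks and then fed for 70 days. NT mice were left without ovalbumin (OVA) and ate standard feed. The other 3 groups were sensitized to OVA by injection with an aluminum adjuvant and challenged by inhaling it. Ctrl-F mice ate standard feed, Cap-F mice ate feed with Cap, a carbonate apatite particle without DNA, and ODNcap-F mice ate feed with ODNcap, the same kind of particle holding the CpG oligodeoxynucleotide MsST. Each group had 2 mice, with 1 single-color array per mouse. Injection, adjuvant and inhalation were given together, so their shares in a difference from NT cannot be told apart. No mice without OVA ate particles, so in Cap-F and ODNcap-F against NT the feed and OVA cannot be told apart either. The comparison of Ctrl-F with NT asks which chemokines differ in the allergic lung on the same feed. Those of Cap-F and ODNcap-F with NT ask this with the feed changed too. The comparisons among the OVA-challenged groups ask whether the feed alters them.

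All 8 arrays lay on 1 slide and were read in 1 scan. NT and Ctrl-F lay in slide row 1, Cap-F and ODNcap-F in row 2, so row and group cannot be told apart in comparisons across rows. On each array 61.3% to 65.0% of the probes had signals well above background. The goblet cell list rose in each OVA-challenged group (6 of 6 markers called), and of 5 eosinophil markers 4 were called higher in Ctrl-F, with 5 in Cap-F and 4 in ODNcap-F. Epx, an eosinophil granule gene, was not well above background in NT and was at least 27.2-fold higher in Ctrl-F. That bound was not tested, and limma on the measured signals gave adjusted p = 0.000296. The alveolar type 2 cell markers, which mark lung tissue, were well above background on every array and their changes from NT, by the brightest probe of each, lay between -0.75 and 0.45 on the log2 scale. A dimmer probe of Sftpb, a surfactant protein gene, was called lower, at -1.61 in Ctrl-F and -1.74 in the other groups. In bulk lung, fewer cells of a type and less RNA per cell cannot be told apart.

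The DNA before Cxcl1, Cxcl2, Cxcl10 and Cxcl9 is shown as a choice from the 8 members with a window. All 4 rose in each OVA-challenged group, and they were picked in part by the motifs they hold. Cxcl1 and Cxcl2 hold the same motif, and Cxcl13, which also rose, is not displayed. Each line is the 250 bases before the annotated start in RefSeq (assembly GRCm38.p6), read 5′ to 3′ on the strand of the gene. Capitals mark matches, on either strand, to the kappa B motif bound by NF-kappa B, to GAAANNGAAA (ISRE, of interferon-responsive genes) or to TGANTCA (AP-1).
Cxcl1, chr5:90890995-90891244, plus strand: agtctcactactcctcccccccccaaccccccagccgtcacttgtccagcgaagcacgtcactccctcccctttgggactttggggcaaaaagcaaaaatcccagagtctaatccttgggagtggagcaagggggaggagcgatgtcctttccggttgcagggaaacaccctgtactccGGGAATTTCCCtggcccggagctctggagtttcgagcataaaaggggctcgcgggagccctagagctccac
Cxcl2, chr5:90903649-90903898, plus strand: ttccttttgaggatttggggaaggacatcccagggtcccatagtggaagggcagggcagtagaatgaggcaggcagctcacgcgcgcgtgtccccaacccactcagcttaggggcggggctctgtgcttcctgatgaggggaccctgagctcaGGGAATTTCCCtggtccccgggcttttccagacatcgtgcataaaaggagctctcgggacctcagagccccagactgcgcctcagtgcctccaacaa
Cxcl10, chr5:92348890-92349139, minus strand: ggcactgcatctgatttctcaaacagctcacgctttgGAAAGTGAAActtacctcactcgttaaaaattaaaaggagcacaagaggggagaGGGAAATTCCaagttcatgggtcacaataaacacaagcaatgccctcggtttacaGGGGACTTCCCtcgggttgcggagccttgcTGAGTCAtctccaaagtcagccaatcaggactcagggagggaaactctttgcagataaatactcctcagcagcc
Cxcl9, chr5:92328080-92328329, minus strand: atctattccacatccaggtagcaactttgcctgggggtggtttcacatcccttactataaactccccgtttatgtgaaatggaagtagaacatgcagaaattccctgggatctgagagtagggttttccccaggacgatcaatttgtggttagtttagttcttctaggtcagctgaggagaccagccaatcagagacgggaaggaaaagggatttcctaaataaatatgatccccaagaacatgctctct

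Cxcl1 and Cxcl2 held the same 11 bases in capitals, which match the kappa B motif on both strands. They stand at positions -71 to -61 in Cxcl1 and -97 to -87 in Cxcl2, where -1 is the base before the start. Cxcl10 held 3 kappa B matches, of which the pair starting at -104 and -103 overlap, and the other starts at -159. It also held an ISRE match at -213 to -204 and an AP-1 match at -74 to -68. The Cxcl9 stretch held none of the 3 motifs, and its only match was an AP-1 site after the start, at 32 to 38. Among the other members with a window of 300 bases around the start, Cxcl14 held an ISRE match, and Cxcl12, Cxcl13 and Cxcl15 held none. Windows were present for 8 of the 10 members, all but Cxcl5 and Cxcl16. Of 32851 such windows in RefSeq, 8.46% held the kappa B motif, 3.44% the ISRE and 7.81% AP-1. A match is a run of letters and not evidence of binding, and a missing match says only that these letters are not in the window.

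Of the 10 members, 7 were higher and 2 lower than NT in each of the 3 OVA-challenged groups. Calls needed a fold change over 2 and a limma p under 0.05 after Benjamini-Hochberg adjustment over all probes, and values are log2 intensities after quantile normalization. Cxcl1, Cxcl2, Cxcl5, Cxcl9, Cxcl10, Cxcl13 and Cxcl16 rose, Cxcl12 (by its brighter probe) and Cxcl14 fell, and Cxcl15 was not called. Of all genes tested, 10.5% were called higher and 12.2% lower in Ctrl-F, 9.74% and 9.87% in Cap-F, and 9.86% and 10.8% in ODNcap-F. Members had a median absolute log2 change of 2.24 in Ctrl-F, with 2.67 in Cap-F and 2.78 in ODNcap-F, against 0.48, 0.42 and 0.46 over all genes. Because the members were chosen with earlier results of these data known, their contrast with all genes is a description and not a test. For 7 members all 6 OVA-challenged mice lay above both NT mice, as did 28.9% of all genes, and for 2 members all 6 lay below, as did 40.6%. The 3 comparisons share the same 2 NT mice and are not independent of each other. Over all probes the median change from NT was -0.0963, -0.103 and -0.11 on the log2 scale, and the members' changes stand beside that shift. With 2 mice per group, exact permutation of a single gene gives no two-sided p below 0.333.

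**Figure D1:**
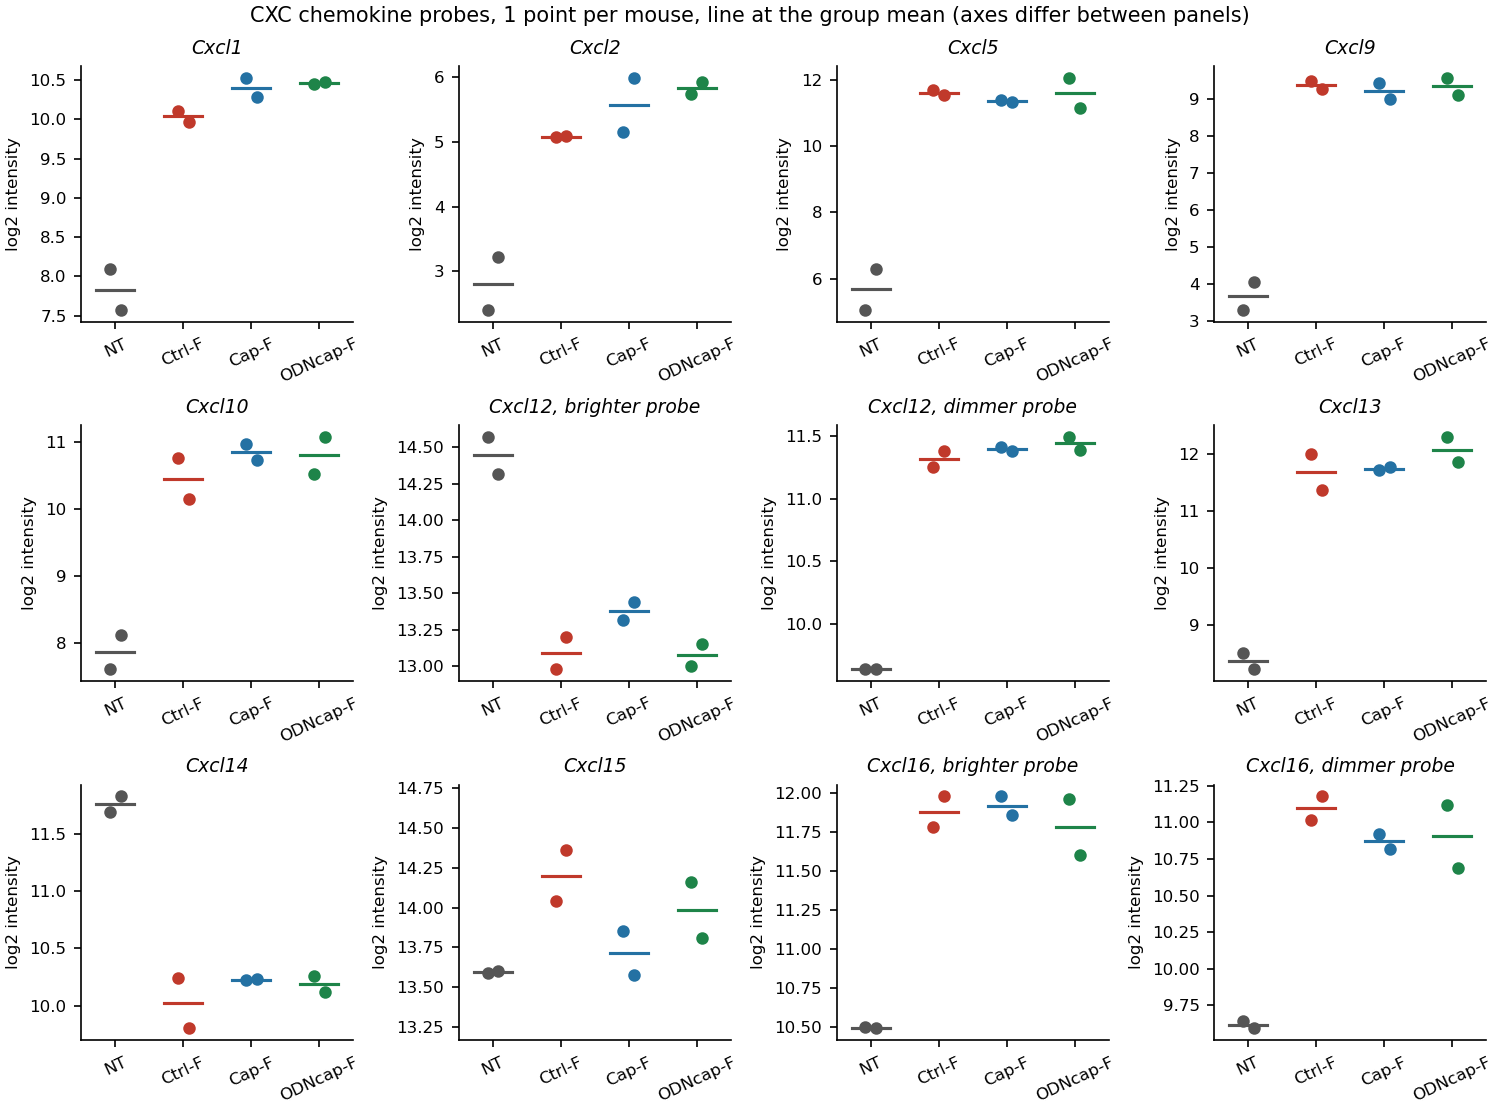
Log2 intensity (vertical axis, own scale in each panel) of each tested CXC chemokine probe in the 4 groups, 1 point per mouse and a line at the mean of 2 mice. The 6 OVA-challenged mice sit apart from both NT mice in every panel except that of Cxcl15, above NT for most probes and below for Cxcl14 and the brighter Cxcl12 probe.

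The chemokines with the ELR motif are Cxcl1, Cxcl2, Cxcl5 and Cxcl15 among the members. Cxcl5, made by epithelial cells of the lung, had the largest fold change of these 4. Its log2 intensity was 5.05 and 6.30 in the NT mice. It was 11.67 and 11.52 in Ctrl-F, with 11.38 and 11.32 in Cap-F, and 12.05 and 11.13 in ODNcap-F. All 6 OVA-challenged mice lay far above NT, and the highest and the lowest of them were both in ODNcap-F. The fold change over NT was 60.4 in Ctrl-F (log2 5.92 ± 0.46 SE, adjusted p = 0.000171), with 51.2 in Cap-F and 60.4 in ODNcap-F. This size depends on the NT signals: without NT mouse 1 the log2 change in Ctrl-F was 5.29, without NT mouse 2 it was 6.54, and with normexp background correction it was 4.70.

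Cxcl1, also called KC, is a neutrophil chemoattractant of epithelium, endothelium and macrophages. Its log2 intensity was 8.09 and 7.57 in NT, 10.11 and 9.97 in Ctrl-F, with 10.53 and 10.28 in Cap-F, and 10.45 and 10.48 in ODNcap-F. All 6 OVA-challenged mice were higher than both NT mice, and the Ctrl-F mice were the lowest of the 6. The rise was 4.62-fold in Ctrl-F, with 5.95-fold in Cap-F and 6.19-fold in ODNcap-F (log2 SE 0.18, adjusted p = 0.000214, 0.000153 and 0.000139).

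Cxcl2, or MIP-2, binds the same receptor as Cxcl1. Its probe was not well above background in either NT mouse, with log2 values of 2.40 and 3.22. It reached 5.07 and 5.09 in Ctrl-F, with 5.15 and 5.99 in Cap-F, and 5.74 and 5.92 in ODNcap-F, well above background in all 6 mice. The probe thus entered the test through the OVA-challenged groups alone. Against the floor of the NT arrays, the lowest signal well above background, Cxcl2 was at least 2.73-fold higher in Ctrl-F. It was at least 3.86-fold higher in Cap-F and at least 4.61-fold in ODNcap-F. These bounds were not tested. Limma on the measured signals gave log2 changes of 2.27, 2.77 and 3.02 (adjusted p = 0.00226, 0.00118 and 0.000791). With normexp, which compresses low signals, the log2 changes were 0.52, 0.77 and 0.81 and under 2-fold.

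Cxcl15, or lungkine, is a chemokine of lung epithelium and stood apart from the other ELR members. Its log2 intensity was 13.59 and 13.60 in NT and 14.04 and 14.36 in Ctrl-F. In Cap-F it was 13.85 and 13.58, and in ODNcap-F 14.16 and 13.81. Cap-F mouse 2 was level with NT, and the other 5 OVA-challenged mice were above it. The Ctrl-F difference was 1.52-fold (log2 0.60 ± 0.17 SE, adjusted p = 0.0231), past the p threshold and under the fold threshold. In Cap-F the log2 difference was 0.11 (95% interval -0.30 to 0.53) and in ODNcap-F 0.39 (-0.03 to 0.80). The summed intensity of the alveolar type 2 cell list was 483000 to 492000 in NT and 465000 to 491000 in the OVA-challenged mice. Such a sum adds linear signals, so the brightest genes of a list weigh most. Here that was Sftpc, at 17.60 or 17.64 on every array. Quantile normalization sets the brightest values equal on all arrays, so a change of Sftpc could hardly show.

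The receptor genes for ELR chemokines took different directions. Cxcr1 fell by 1.27, 1.70 and 1.32 on the log2 scale in the Ctrl-F, Cap-F and ODNcap-F groups. Without NT mouse 1 it was at -1.14 in Ctrl-F and -1.19 in ODNcap-F and called in neither. Without Ctrl-F mouse 2 it was at -1.11 in Ctrl-F, and without ODNcap-F mouse 2 at -0.85 in ODNcap-F, again not called. Cxcr2, the main receptor of mouse neutrophils for these ligands, had log2 values of 0.85, 0.73 and 0.61 over NT and was not called. Of 11 neutrophil markers tested, 2 were called higher in each OVA-challenged group, Ltf and Retnlg, and 2 were called lower in Ctrl-F and Cap-F and 3 in ODNcap-F. Those that fell were Camp and Ngp, granule genes of maturing neutrophils, and in ODNcap-F also S100a9. The NT mice lay apart in Camp (10.54 and 8.70) and Ngp (8.08 and 6.19). Without NT mouse 1, a fit added after seeing the data, the Ctrl-F values were -1.05 for Camp and -1.46 for Ngp, in place of -1.97 and -2.40, and S100a9 was no longer called. Camp in Cap-F was then at -0.84 and not called. Leaving out single OVA-challenged mice ended the Camp call in each group, the Ngp call in Ctrl-F and Cap-F, and the S100a9 call. The summed intensity of the list was 120000 to 132000 in NT, 88200 to 93800 in Ctrl-F, 105000 in both Cap-F mice and 83300 to 100000 in ODNcap-F. Most of this sum came from Csf3r and S100a9, with mean log2 intensities of 16.20 and 15.17 in NT. Csf3r was at -0.63, -0.42 and -0.62 and was not called. Ltf and Retnlg, which rose, stood at 9.86 and 11.30 in NT and weighed less. Every neutrophil marker tested was well above background in both mice of each group, except Ngp in ODNcap-F (1 of 2 mice). How far neutrophil content moved with the ELR chemokines was not tested.

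**Figure D2:**
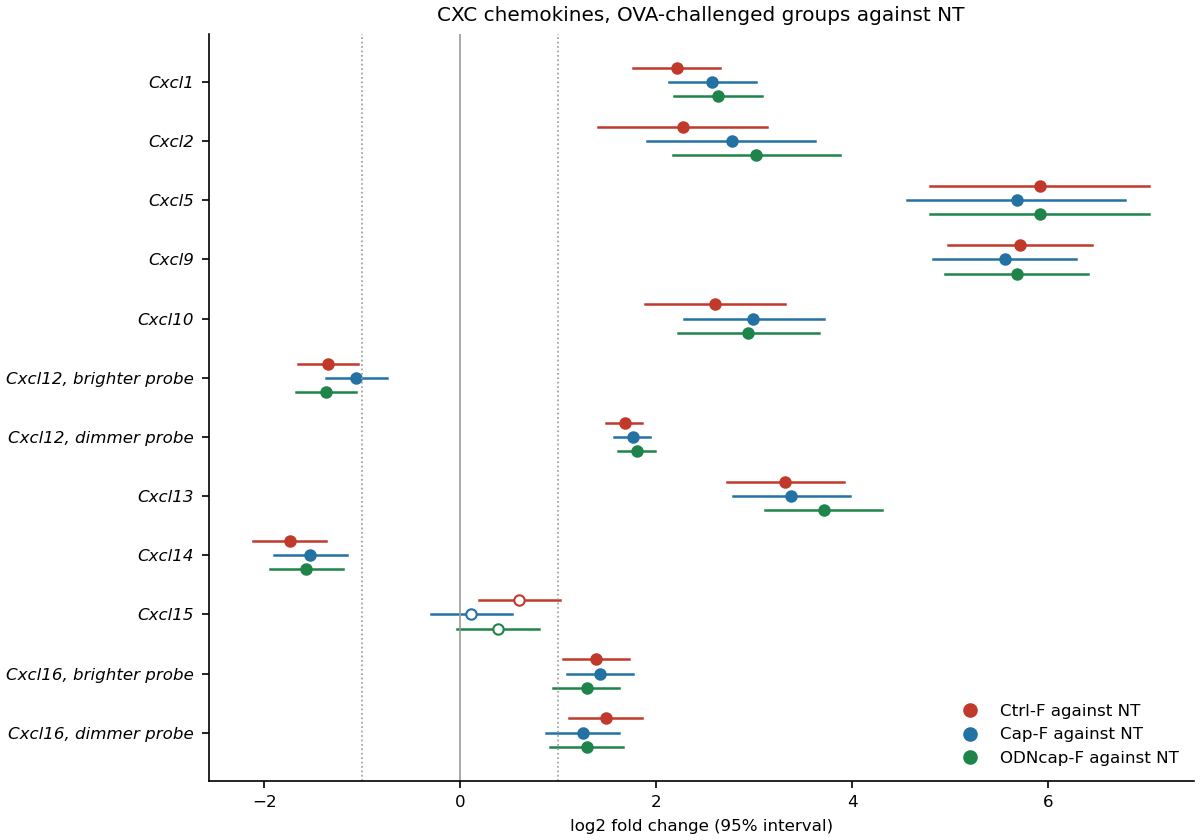
Log2 fold change (horizontal axis) of each CXC chemokine probe in the Ctrl-F, Cap-F and ODNcap-F groups against NT, with 95% intervals from the limma fit on 2 mice per group. Filled points were called, dotted lines mark 2-fold. Cxcl5 and Cxcl9 lie between 5.56 and 5.92 (NT signals of Cxcl2, and of Cxcl9 in 1 mouse, were not well above background), the brighter Cxcl12 probe and Cxcl14 lie between -1.74 and -1.06, and Cxcl15 (open points) lies between 0.11 and 0.60.

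Both CXCR3 ligands among the members rose. Cxcl9, also named MIG, is a classical target of interferon gamma. In NT its log2 intensity was 3.29 and 4.05, well above background in 1 of the 2 mice. In Ctrl-F it was 9.49 and 9.28, in Cap-F 9.45 and 9.01, and in ODNcap-F 9.58 and 9.12. Against the measured NT mean the fold change was 52.5 in Ctrl-F, with 47.1 in Cap-F and 51.2 in ODNcap-F (log2 SE 0.30, adjusted p = 4.96e-05, 6.37e-05 and 5.69e-05). Its probe entered the test through the OVA-challenged groups alone, so these p-values are not ranked against those of other members. With normexp the log2 change in Ctrl-F was 3.36 in place of 5.71.

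Cxcl10, or IP-10, answers to interferons and to NF-kappa B. Its log2 intensity was 7.60 and 8.11 in NT, 10.75 and 10.15 in Ctrl-F, with 10.96 and 10.73 in Cap-F, and 10.52 and 11.07 in ODNcap-F. Ranges of the 3 OVA-challenged groups overlapped, far above NT. The rise was 6.08-fold in Ctrl-F (log2 2.60 ± 0.29 SE, adjusted p = 0.000649), with 7.96-fold in Cap-F and 7.68-fold in ODNcap-F. In Ctrl-F the 95% interval of the log2 change was 1.89 to 3.32.

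The interferon gamma gene itself, Ifng, rose by 1.02, 1.39 and 1.26 on the log2 scale in the Ctrl-F, Cap-F and ODNcap-F groups. Without NT mouse 2 the Ctrl-F value of Ifng was 0.88, under 2-fold. Irf1, a transcription factor that interferon gamma induces, was not called, with log2 values of -0.48, -0.32 and -0.44. Cxcr3, the receptor of Cxcl9 and Cxcl10, was at 0.44, 0.74 and 0.55 over NT and was not called. Of 7 T cell markers, 1 was called higher in Ctrl-F (Cd2) and 3 in Cap-F (Cd2, Cd3g and Cd5). Without NT mouse 2 none of these T cell calls held, with Cd2 at 0.87, Cd3g at 0.90 and Cd5 at the 2-fold limit, and Cd2 was also not called without Ctrl-F mouse 1 (0.86) or Cap-F mouse 1 (0.96). In ODNcap-F 6 of the 7 passed the p threshold with changes under 2-fold, and Cd8a was at 0.01. The summed intensity of the T cell list was 8520 to 10900 in NT and 15000 to 18400 over the 6 OVA-challenged mice, with each marker well above background. The part of T cells in the Cxcl9 and Cxcl10 signals was not tested.

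The remaining 4 members bind other receptors. Cxcl13 attracts B cells through CXCR5 and organizes lymphoid follicles. Its log2 intensity was 8.50 and 8.22 in NT, 12.00 and 11.37 in Ctrl-F, with 11.72 and 11.77 in Cap-F, and 12.30 and 11.86 in ODNcap-F. Both ODNcap-F mice lay above both Cap-F mice (exact permutation p = 0.333), and the Ctrl-F mice spanned a wider range that overlapped each. The rise was 10-fold in Ctrl-F (log2 3.32 ± 0.24 SE, adjusted p = 0.000146), with 10.4-fold in Cap-F and 13.1-fold in ODNcap-F.

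Its receptor gene Cxcr5 rose by 1.77, 2.10 and 1.75 on the log2 scale. Lta and Ltb, lymphotoxin genes known to drive Cxcl13 in lymphoid tissue, rose by 2.25 and 1.31 in Ctrl-F, with 2.63 and 1.64 in Cap-F, and 2.03 and 1.21 in ODNcap-F. Of 8 B cell markers, 6 were called higher in Ctrl-F, with 7 in Cap-F and 6 in ODNcap-F. Their summed intensity was 8680 to 12100 in NT, 32700 to 44200 in Ctrl-F, with 45600 to 46600 in Cap-F and 35500 to 37800 in ODNcap-F, and each marker was well above background in every group. Of the follicular dendritic cell list Cr2 alone was tested, a gene that B cells also express. It was called higher in Cap-F (log2 1.17, adjusted p = 0.00472; 0.88 and not called without NT mouse 2) and was at 0.32 in Ctrl-F and 0.52 in ODNcap-F. The part of B cells in the rise of Cxcl13 was not tested.

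Cxcl16, a membrane-bound chemokine and scavenger receptor of macrophages and epithelium, was measured by 2 probes for the same accession, NM_023158. The brighter gave 10.50 and 10.49 in NT, 11.78 and 11.98 in Ctrl-F, with 11.98 and 11.86 in Cap-F, and 11.96 and 11.60 in ODNcap-F. Values of the dimmer probe were 9.64 and 9.59 in NT, 11.02 and 11.18 in Ctrl-F, with 10.92 and 10.82 in Cap-F, and 11.12 and 10.69 in ODNcap-F. Both probes set all 6 OVA-challenged mice above NT, and ODNcap-F mouse 2 was the lowest of the 6 on both. The rise was 2.62-fold, 2.69-fold and 2.44-fold by the brighter probe (adjusted p = 0.000388, 0.000421 and 0.000569) and 2.80-fold, 2.38-fold and 2.44-fold by the dimmer. Cxcr6, the receptor of Cxcl16, rose by 1.74, 1.70 and 1.53 on the log2 scale. Of 6 macrophage markers, 5 were called higher in each group, among them Itgax (log2 3.37 in Ctrl-F) and Cd68 (2.22), and Marco, a marker of resident alveolar macrophages, fell by 3.98. Their summed intensity was 25500 to 25900 in NT and 159000 to 169000 in the OVA-challenged mice, with each marker well above background in every group. The brightest of them, and most of the sum, was Chil3, at a mean log2 intensity of 13.99 in NT and 16.83 in Ctrl-F. The part of macrophages in the Cxcl16 signal was not tested.

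Cxcl12, or SDF-1, is made by stromal and endothelial cells and holds CXCR4-bearing cells in place. Its 2 probes moved in opposite directions. The brighter, listed under NM_001012477, gave 14.57 and 14.32 in NT, 12.98 and 13.20 in Ctrl-F, with 13.32 and 13.44 in Cap-F, and 13.00 and 13.15 in ODNcap-F. Its dimmer probe, listed under NM_021704, gave 9.64 in both NT mice, 11.25 and 11.38 in Ctrl-F, with 11.41 and 11.38 in Cap-F, and 11.49 and 11.39 in ODNcap-F. On each probe the 6 OVA-challenged mice stood clear of NT, below it on the brighter and above it on the dimmer.

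By the brighter probe Cxcl12 fell 2.55-fold in Ctrl-F, with 2.09-fold in Cap-F and 2.58-fold in ODNcap-F (log2 SE 0.13, adjusted p = 0.000323, 0.000918 and 0.000348). The fall in Cap-F, -1.06 on the log2 scale, was close to the fold threshold. It was -0.92 after scaling to the 75th percentile and -0.94 without NT mouse 1, and was then not called. By the dimmer probe the signal rose 3.20-fold, 3.38-fold and 3.48-fold (log2 SE 0.08, adjusted p = 3.28e-05, 3.28e-05 and 2.93e-05). The changes of the probes differed by 3.03, 2.82 and 3.17 on the log2 scale, and a mean of both gave log2 changes of 0.16, 0.35 and 0.22, none called. RefSeq lists 3 transcripts of Cxcl12. Which of them each probe binds cannot be stated from the accessions, and the letters of the probes were not used here.

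Among the receptors of Cxcl12, Cxcr4 rose by 1.46, 1.35 and 1.43 on the log2 scale in the Ctrl-F, Cap-F and ODNcap-F groups. Ackr3, which takes up Cxcl12 without a classical G protein signal, fell by 1.62, 1.53 and 1.44. Of 5 endothelial markers, 3 fell in each group (Cdh5, Tek and Kdr), and Vwf was at -0.02 to 0.02. Their summed intensity was 45400 to 48700 in NT and 27000 to 34900 in the OVA-challenged mice. Of 5 fibroblast markers, 3 fell in Ctrl-F (Dcn, Lum and Pdgfra), with 2 in Cap-F and 1 in ODNcap-F, while Lum in Cap-F was at -1.37 without Cap-F mouse 1, -3.06 without Cap-F mouse 2, and not called without NT mouse 2 (-2.10). Col1a1 was at 0.50 to 0.87. Their summed intensity was 39500 to 40100 in NT, 29900 to 30500 in Ctrl-F, with 36700 to 42200 in Cap-F and 32600 to 35100 in ODNcap-F. All markers of both lists were well above background. Their part in the Cxcl12 values was not tested.

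Cxcl14, an epithelial and stromal chemokine of healthy tissue, fell in every OVA-challenged group. Its log2 intensity was 11.69 and 11.83 in NT, 10.24 and 9.80 in Ctrl-F, with 10.22 and 10.23 in Cap-F, and 10.26 and 10.12 in ODNcap-F. Cxcl14 fell 3.33-fold in Ctrl-F (log2 -1.74 ± 0.15 SE, adjusted p = 0.000255), with 2.89-fold in Cap-F and 2.96-fold in ODNcap-F. A second probe for Cxcl14, under XM_006517307, was not well above background on any array and was not tested. Of 4 club cell markers, airway secretory genes, Scgb3a2 and Cyp2f2 fell in every group and Scgb1a1 was at -0.08 to -0.02. Scgb1a1 lay at 17.52 to 17.64 on all arrays, among the brightest values, which quantile normalization sets equal, so a change could hardly show. The fourth, Scgb3a1, was at 1.65 and 2.32 in Ctrl-F and Cap-F and was called higher in ODNcap-F at 2.54 (adjusted p = 0.0467). Its NT mice lay apart at 11.80 and 14.54, and without NT mouse 1 the ODNcap-F value was 1.18 and not called. That call was kept only when NT mouse 2 was the one left out. The club cell sum was 427000 to 477000 in NT and 249000 to 321000 in the OVA-challenged mice, each marker well above background. Its part in the fall of Cxcl14 was not tested.

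Of 6 cardiomyocyte markers, which mark muscle of the pulmonary veins in mouse lung, 4 fell in Ctrl-F (Myh6, Myl7, Tnni3 and Tnnt2). For Myh6, Myl7 and Tnnt2 the call was lost on leaving out any mouse of NT or Ctrl-F, with log2 values between -4.34 and -2.63. The calls of Myh6 and Myl7 were also lost without either ODNcap-F mouse. In Cap-F the log2 values of the 6 markers ran from -2.49 to 0.44 and in ODNcap-F from -0.85 to 0.33, without a call. The sums were 16300 to 33100 in NT, 5350 to 6730 in Ctrl-F, with 5460 to 18100 in Cap-F and 13800 to 20500 in ODNcap-F. Cxcl12 (brighter probe) and Cxcl14 fell in all 3 groups, and the part of this muscle in their values was not tested.

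On chromosome 5 lie 7 of the 10 members, in the order Cxcl5, Cxcl15, Cxcl1, Cxcl2, Cxcl9, Cxcl10 and Cxcl13, with other CXC genes among them. Between Cxcl5 and Cxcl15 stand Ppbp, Pf4 and Cxcl3. Cxcl3, an ELR chemokine, was not well above background in NT (2.09 and 3.17) and reached 8.07 and 7.84 in Ctrl-F, with 7.91 and 8.10 in Cap-F, and 8.04 and 7.90 in ODNcap-F. It was at least 20.1-fold, 20.8-fold and 20.3-fold higher than NT. Limma on the measured signals gave adjusted p = 8.39e-05, 9.69e-05 and 9.70e-05, and the bounds were not tested. Ppbp, a chemokine of platelets, fell by 2.37, 1.73 and 2.38 on the log2 scale. Pf4, platelet factor 4, was at 0.90, 0.87 and 0.70, under 2-fold. Neighbors thus differed in direction, with Cxcl5 up and Ppbp, the next CXC gene, down. Cxcl17 on chromosome 7, a mucosal chemokine, was called higher in ODNcap-F (log2 1.27, adjusted p = 0.00748), with 0.75 in Ctrl-F, 0.76 in Cap-F and no call between these groups. Of the 5 other CXC ligands listed, 4 were tested, and Cxcl11 had no probe under its accession. Probes for close paralogs such as Cxcl1, Cxcl2 and Cxcl3 may share sequence, and cross-hybridization was not tested.

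**Figure D3:**
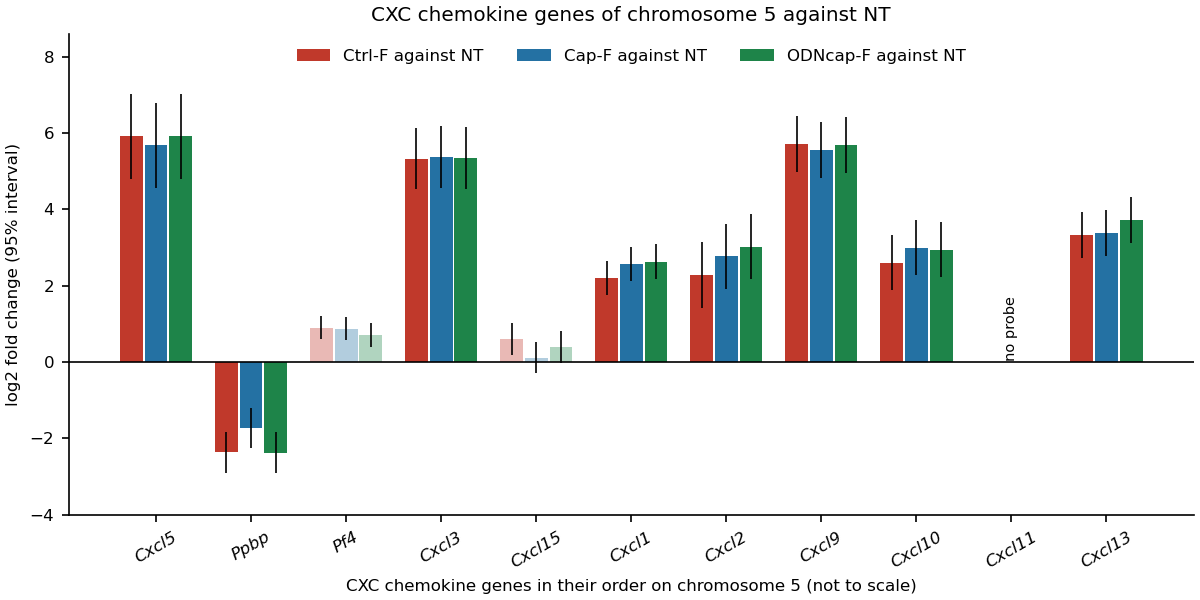
Log2 fold change against NT (vertical axis, bars with 95% intervals, 2 mice per group) of the CXC chemokine genes of chromosome 5 in their order along it, with distances not to scale. Pale bars were not called, and Cxcl11 had no probe. NT signals of Cxcl2 and Cxcl3 were not well above background, so their bars are fitted values. Cxcl5 and Cxcl3 reach more than 5 while Ppbp lies between -2.38 and -1.73.

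Other genes of the pathway were followed from lists. Of 8 receptors, 4 were called higher in each OVA-challenged group and 2 lower. The steepest rise was that of Ackr1, the scavenger of venules that binds many inflammatory chemokines, by 2.87, 2.76 and 2.58 on the log2 scale. Its signal was 5.03 and 5.17 in NT and 7.62 to 8.09 in the 6 OVA-challenged mice. Of 13 cytokines and receptors tested that induce CXC chemokines, 5 were called higher in Ctrl-F, with 6 in Cap-F and 5 in ODNcap-F. Il6 rose, with log2 values of 3.92, 3.10 and 3.85 against measured NT signals of 3.26 and 3.90, of which 1 was well above background. Tnf was called higher, at 1.31, 1.48 and 1.16. The NT mice differed in Tnf, at 5.28 and 6.62. Without NT mouse 1 Tnf was at 0.64, 0.81 and 0.49 and not called. Leaving out either mouse of an OVA-challenged group also ended the call in that group. The ODNcap-F call of Tnf was kept only when NT mouse 2 was left out. Its Ctrl-F call was also lost without either ODNcap-F mouse. Il17a, which drives ELR chemokines in epithelium, had signals well above background in 1 ODNcap-F mouse (4.56), both Cap-F mice (5.22 and 5.01) and no Ctrl-F or NT mouse. It was at least 2.81-fold higher in Cap-F than in NT, a bound that was not tested. Limma on the measured signals called it there (adjusted p = 0.0246), a call lost when any NT or Cap-F mouse was left out. Il17a was not called between the OVA-challenged groups. Il1b was at 0.47, 0.66 and 0.20 over NT and was not called. Il17f and Ifnb1 did not pass the filter on low signals.

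Of 6 signaling genes, 1 was called, Nfkb2, an NF-kappa B subunit of the lymphotoxin branch, which rose by 1.08, 1.31 and 1.10 (0.99 in Ctrl-F without Ctrl-F mouse 1, under 2-fold). Rela was at -0.59, -0.50 and -0.63, and Nfkbia, the inhibitor that NF-kappa B induces, at -0.09, 0.12 and 0.05. Of 8 genes for decay of chemokine mRNA or cleavage of the proteins, 1 was called by its brightest probe, Zc3h12a, an RNase that degrades inflammatory transcripts, in Ctrl-F (log2 1.12). In Cap-F and ODNcap-F Zc3h12a was at 0.88 and 0.83. Zfp36, which destabilizes Cxcl1 and Cxcl2 mRNA, was at 0.01, -0.13 and 0.05. Dpp4, the protease that trims Cxcl10 and Cxcl12, was at -0.69, -0.80 and -0.73 by its brighter probe. A dimmer Dpp4 probe was at -0.95 in Ctrl-F and was called lower at -1.05 for Cap-F and -1.32 for ODNcap-F.

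**Figure D4:**
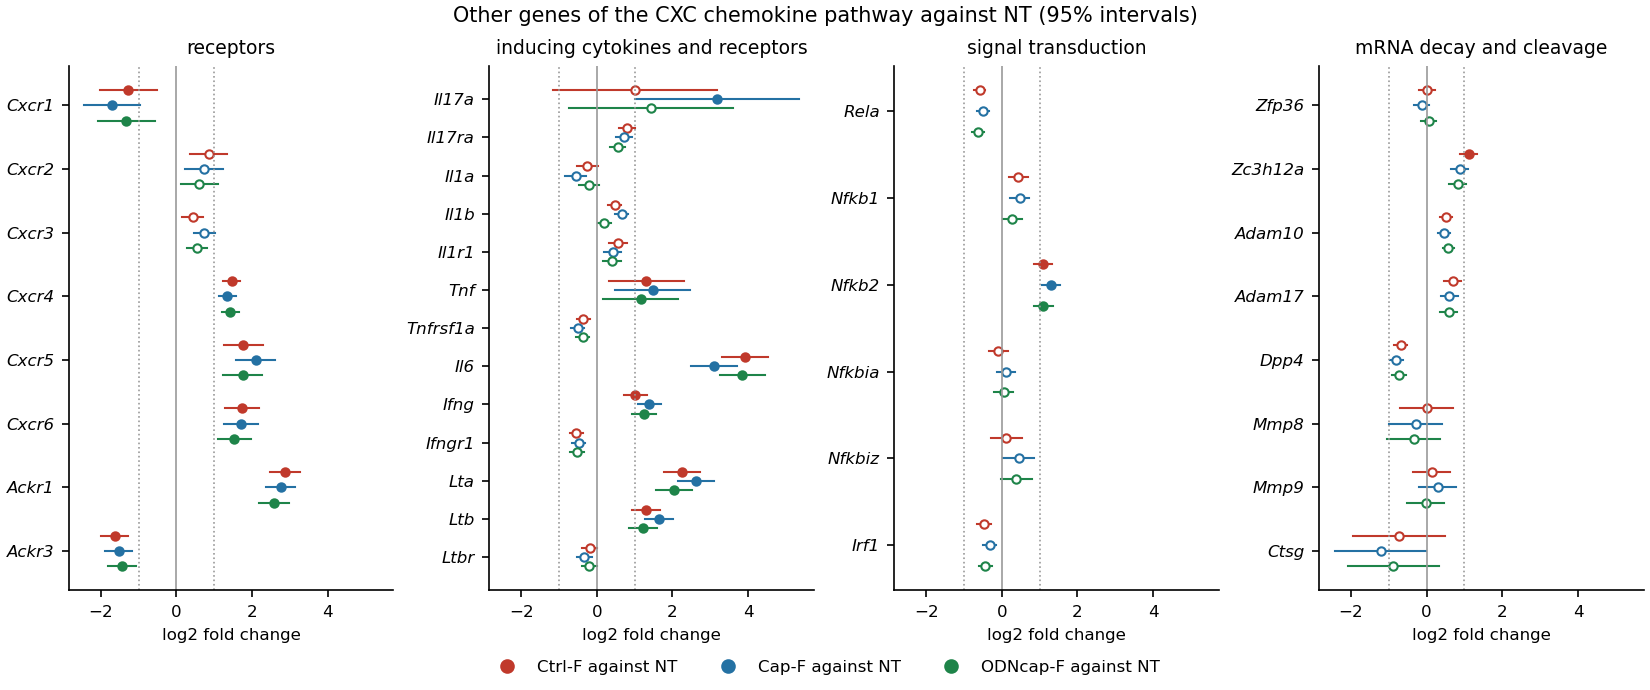
Log2 fold change against NT (horizontal axis) with 95% intervals for receptors, inducing cytokines and their receptors, signaling genes, and genes of mRNA decay and cleavage, in the Ctrl-F, Cap-F and ODNcap-F groups (2 mice per group). Filled points were called and dotted lines mark 2-fold. Ackr1, Il6, Lta and Cxcr5 lie well above 0, and Cxcr1 and Ackr3 below -1.

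None of the 10 members was called between the OVA-challenged groups. In limma 0 of 10 were called for ODNcap-F against Ctrl-F (0% of all genes), 0 for ODNcap-F against Cap-F (0.00345%) and 0 for Cap-F against Ctrl-F (0.00345%). The local-pooled-error method, in which probes of like intensity share a variance, called 0 in each as well. No member differed by 2-fold between these groups, so under the fold rule no test on these values could have called a member. At an unadjusted p under 0.05 the counts were 0, 0 and 1 of 10, against 6.78%, 13.4% and 16.6% of all genes. The 1 was Cxcl15, at -0.49 on the log2 scale for Cap-F against Ctrl-F (95% interval -0.90 to -0.07, adjusted p = 0.256). The smallest adjusted p among the members was 0.75, 0.387 and 0.256 in these comparisons.

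The intervals show what 2 mice per group leave undecided. For ODNcap-F against Ctrl-F the log2 difference was 0.42 in Cxcl1 (95% interval -0.02 to 0.87) and 0.75 in Cxcl2 (-0.10 to 1.61). In Cxcl5 it was 0.00 (-1.12 to 1.12), in Cxcl9 -0.04 (-0.77 to 0.70), in Cxcl10 0.34 (-0.38 to 1.05) and in Cxcl13 0.39 (-0.21 to 0.99). A 2-fold difference in either direction thus lay outside the interval for Cxcl1, Cxcl9 and Cxcl13. For Cxcl2 and Cxcl10 a 2-fold higher level lay inside it and a 2-fold lower level outside, and for Cxcl5 both lay inside. In Cxcl12 the difference was -0.02 (-0.33 to 0.29) by the brighter probe and 0.12 (-0.06 to 0.31) by the dimmer. In Cxcl14 it was 0.17 (-0.20 to 0.54), in Cxcl15 -0.22 (-0.63 to 0.20) and in Cxcl16 -0.10 (-0.44 to 0.23). For these 4 genes 2-fold in either direction lay outside the interval.

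Between ODNcap-F and Cap-F, both fed particles and both in slide row 2, the largest member difference was 0.33 in Cxcl13 (95% interval -0.27 to 0.93). Cxcl12 was lower in ODNcap-F by its brighter probe, at -0.31 (-0.61 to 0.00), and the 2 groups did not overlap. Between Cap-F and Ctrl-F the largest differences were 0.50 in Cxcl2 (-0.36 to 1.35) and -0.49 in Cxcl15. Cxcl1 was 0.37 higher in Cap-F (-0.08 to 0.81), and both Cap-F mice and both ODNcap-F mice lay above both Ctrl-F mice. The same 4 mice lay above both Ctrl-F mice in Cxcl2. For 2 groups of 2 mice that lie fully apart, exact permutation gives a two-sided p of 0.333. The share of all genes so separated between feeds is not given here. Ctrl-F also lay in a different slide row from Cap-F and ODNcap-F. The median absolute log2 difference over the members was 0.19, 0.19 and 0.26 in the 3 comparisons, against 0.09, 0.13 and 0.14 over all genes. As the members were chosen with earlier results known, this contrast is a description and not a test. It was not set against the spread between mice of a group.

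The spread over the 6 OVA-challenged mice, whatever their feed, was below 2-fold for every tested probe of a member. It ran from 1.18-fold in the dimmer Cxcl12 probe and 1.30-fold in the brighter Cxcl16 probe to 1.90-fold in Cxcl2, Cxcl5 and Cxcl13. The Cxcl10 spread was 1.88-fold, from Ctrl-F mouse 2 to ODNcap-F mouse 2. The 2 ODNcap-F mice alone made up the whole range of Cxcl5, mouse 1 highest and mouse 2 lowest.

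**Figure D5:**
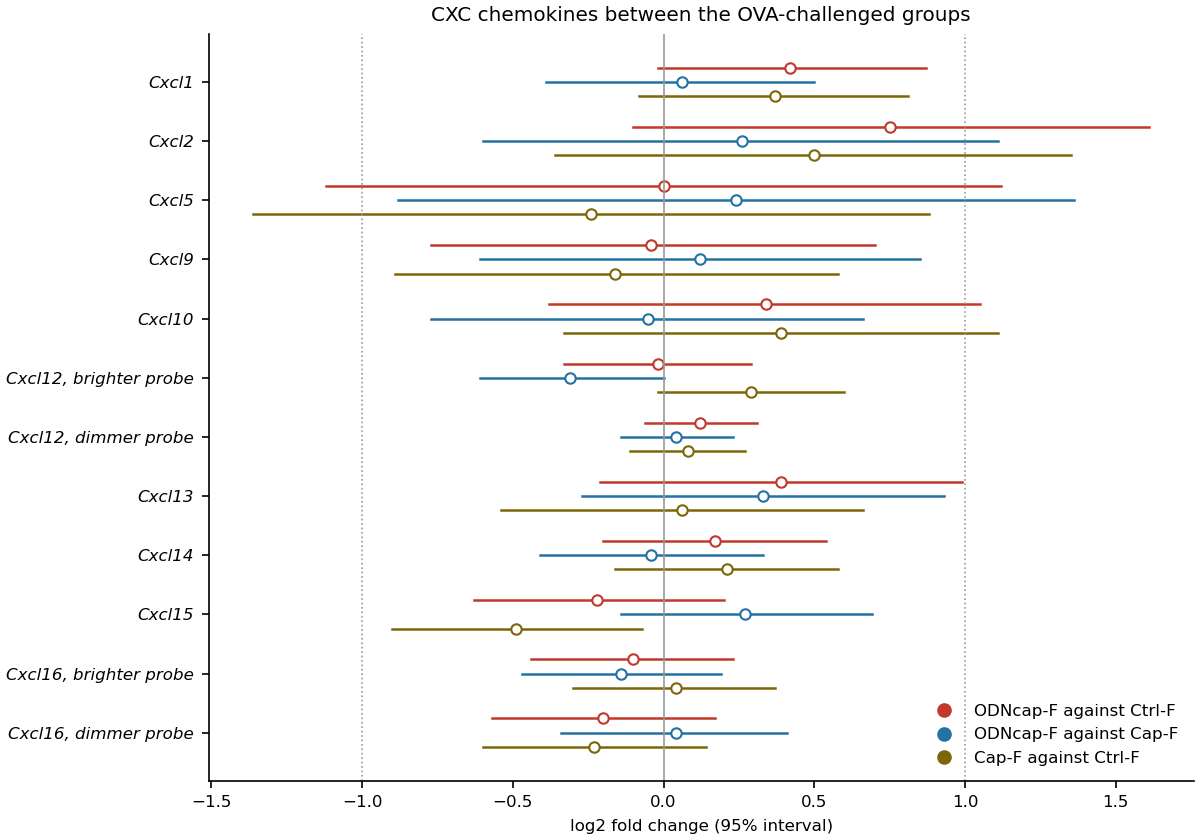
Log2 difference (horizontal axis) of each CXC chemokine probe for ODNcap-F against Ctrl-F, ODNcap-F against Cap-F and Cap-F against Ctrl-F, with 95% intervals from the limma fit on 2 mice per group. Open points were not called, and dotted lines mark 2-fold. All points lie between -0.49 and 0.75, and the interval of Cxcl15 for Cap-F against Ctrl-F, -0.90 to -0.07, does not reach 0.

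The genes whose pattern over the 8 arrays was most like that of each member were searched among 4464 named genes whose group means spanned more than 2-fold. Likeness is Pearson's r over 8 arrays, given as a description. Most of each pattern is the step between NT and the OVA-challenged mice, which many genes share. Nearest to Cxcl1 were Serpina3b (r = 0.9968), Cd69 and Pstpip2, and nearest to Cxcl2 Ly6g6e (0.9955), Speer4c and Muc5b. Cxcl5 was followed most closely by Pole (0.9985), Gmnn and Cip2a, and Cxcl9 by Cip2a (0.9994), Chaf1a and Gmnn. Nearest to Cxcl10 were Mcm8 (0.9955), Fst and Gpr162, and to Cxcl13 Tnfrsf17 (0.9956), Sema4a and Slc38a1. Cxcl16 was nearest to Lrp12 (0.9973), Slc6a13 and Gm9054. Of the members that fell, the brighter Cxcl12 probe was nearest to Cspg4 (0.9951), Kctd21 and Itga1. Cxcl14 was nearest to Esm1 (0.9955), Tmem35a and Ptpdc1. Cxcl15 was left out, since its group means spanned less than 2-fold.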

How the data were processed

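The authors hybridized total lung RNA of each mouse to an Agilent single-color array and read it with Feature Extraction 11.0. The deposited intensity is its background-subtracted processed signal, not normalized. The deposited value table holds log2 values of 32312 probes, which matched quantile-normalized log2 signals (median difference 3.23e-07), and its filter is not given in the sources used here. The authors tested with the local-pooled-error method.

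Here the processed intensities were put on the log2 scale and quantile normalized over 8 arrays. Control spots and 792 flagged values were left out and spots of a probe averaged. The 37116 probes well above background in both mice of a group were tested in limma 3.58.1 (R 4.3.3) over all 4 groups, with Benjamini-Hochberg adjustment. A gene went by its tested probe with the highest mean signal. The scripts were tested on simulated data. Intervals are 95%, from the limma fit.

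RefSeq accessions named 32994 (58.3%) of 56605 probes. A listed signaling gene and a motif are not reported here. Motifs were searched with Python 3.11.15. Named were the members, listed genes and, for each member whose group means differed over 2-fold, the 3 genes most like it. The members and lists were chosen with earlier results of these data known. Alternatives were other scalings, background correction, filters, probe rules, the deposited table, variance settings, the local-pooled-error test, a replicate block and leaving out each mouse. Array number limits precision. Mice are separate animals.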

Additional observations from a re-analysis of the deposited data

How the results depend on the processing

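Against NT, 9 of 10 members were called in each OVA-challenged group, and the count stayed between 7 and 9 under every alternative run. Scaling to the 75th percentile left 8 in Cap-F, where the brighter Cxcl12 probe was -0.92, and leaving out NT mouse 1 also left 8 there. Leaving out any 1 mouse otherwise kept 9. With normexp 8 were called in each group, Cxcl2 being lost. The deposited table and the stricter filter held 8 members, without Cxcl2 and Cxcl9, and 7 were called. The mean of the probes of a gene left 8, since Cxcl12 was then at 0.16 in Ctrl-F, with 0.35 in Cap-F and 0.22 in ODNcap-F, a reversed sign. Between the OVA-challenged groups 0 members were called under every alternative run. A call needs a fold change over 2, and the OVA-challenged mice spanned at most 1.90-fold on any tested member probe after the main normalization. On those values a change of test alone could not give a call. Over all genes the local-pooled-error test called 133, 105 and 141 where limma called 0, 1 and 1 (ODNcap-F against Ctrl-F, ODNcap-F against Cap-F, Cap-F against Ctrl-F). The labels do not state what mice with the same replicate number share. Their deviations correlated at -0.0123 to 0.161 over the pairs of groups, highest between Cap-F and ODNcap-F. With the replicate number as a block, 9 members were called against NT in each group and 0 between the other groups. With 2 mice per group, the standard error of a difference between feeds ran from 0.08 (dimmer Cxcl12 probe) to 0.46 (Cxcl5) on the log2 scale. The folds of Cxcl2 and Cxcl9 rest on NT signals at or near background, and that of Cxcl5 on NT mice at 5.05 and 6.30. The probes of Cxcl2 and Cxcl9 entered the test only through the OVA-challenged groups. Leaving out each mouse was also run for the listed genes, chosen after seeing the data: without NT mouse 1 the call of 9 genes was lost in at least 1 comparison, and without NT mouse 2 that of 10.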
